A study of Mus musculus with 6 samples.

Results

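Erythroid genes tied to Sox6 in red cells were examined in the chromatin of cultured muscle fibres. They are the embryonic globin genes Hbb-y, Hbb-bh1 and Hba-x, the transcription factor genes Bcl11a, Klf1 and Gata1, and the signalling inhibitor gene Socs3. These 7 genes were chosen by name, for what is known of Sox6 in red cells, out of 22921 genes with a RefSeq name placed on NCBI Build 37 of the mouse genome.

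The study immunoprecipitated Sox6 and RNA polymerase II (Pol II) from myotubes and sequenced the DNA (ChIP-seq), with DNA not immunoprecipitated as input. Each of the 3 groups holds 2 libraries from independent experiments, here replicates 1 and 2. All 6 libraries come from wild-type C57BL/6 primary myoblasts of limb muscle of E18.5 fetuses, at 17 passages by the labels and differentiated for 48 h in 2% horse serum. The cells were fixed with disuccinimidyl glutarate and then formaldehyde, and the antibodies were a rabbit polyclonal against Sox6 and clone 4H8 against the C-terminal repeats of Pol II. No library without Sox6, with a control antibody or from red cells was analysed here, so ChIP can be set only against input, in 1 kind of cell.

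Sox6 is an HMG-box transcription factor that bends DNA at short motifs and is known as a repressor in several tissues. In red cells of the liver and adult bone marrow it helps to silence the embryonic β-like globin genes, together with Bcl11a, and Klf1 and Gata1 are the factors that drive the red cell programme. Socs3 is an inhibitor of cytokine signalling through Jak and Stat proteins and has been tied to Sox6 in erythroid cells. In muscle, Sox6 is known instead for holding down slow fibre genes.

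The Sox6 libraries hold 2985437 and 1468604 mapped reads, the Pol II libraries 1538757 and 2762155, and the inputs 21973495 and 24249850. Reads at repeated positions made up 2.96% to 7.88% of a library. All 6 muscle marker genes had more Pol II than input over their bodies, and 3 of 4 fibroblast and 2 of 3 endothelial markers had less, where 39% of all genes had more and 23.9% less by limma. Of the blood and macrophage markers Cd68 and Csf1r had more Pol II and Ptprc less, but with values centred on the median of all windows only 1 of them was called higher, and all 3 endothelial markers had less. The red cell markers Hbb-b1 and Hba-a1 held 0 Pol II reads in both libraries, but 31.5% and 3.77% of the 36-base words of these genes are unique in the genome, so few reads could be placed there. Alas2 and Slc4a1 had values below input that did not pass the test, although all 3 red cell markers that could be tested passed as lower when centred. The part of blood cells in the results was not tested.

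The sequences below show where letters known to bind Sox6 stand near the erythroid genes, which is the context for the read counts that follow. The Sox motif was searched as ACAAAG and ACAATG on both strands, and capitals mark its matches except where stated. The upstream sequences of Hbb-y, Socs3 and Hba-x end at or before the RefSeq start, and that of Hbb-bh1 ends at the GENCODE start. All are given on the strand of the gene, from NCBI Build 37.
Hbb-y, chr7:111001755-111001971, minus strand: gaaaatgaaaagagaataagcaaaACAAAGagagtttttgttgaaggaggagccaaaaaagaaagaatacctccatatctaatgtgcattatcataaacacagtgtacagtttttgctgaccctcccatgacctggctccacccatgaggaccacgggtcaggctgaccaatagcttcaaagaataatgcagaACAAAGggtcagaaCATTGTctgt
Socs3, chr11:117830681-117830930, minus strand: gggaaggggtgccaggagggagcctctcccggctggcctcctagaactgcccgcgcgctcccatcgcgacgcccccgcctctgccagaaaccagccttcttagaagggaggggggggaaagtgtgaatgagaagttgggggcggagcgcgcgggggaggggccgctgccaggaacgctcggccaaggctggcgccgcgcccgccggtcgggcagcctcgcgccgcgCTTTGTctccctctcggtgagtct
Hba-x, chr11:32176465-32176494, plus strand: agccctaattccCATTGTtgctggctctga
Hbb-bh1, chr7:110991679-110991928, minus strand, with GATA matches in capitals: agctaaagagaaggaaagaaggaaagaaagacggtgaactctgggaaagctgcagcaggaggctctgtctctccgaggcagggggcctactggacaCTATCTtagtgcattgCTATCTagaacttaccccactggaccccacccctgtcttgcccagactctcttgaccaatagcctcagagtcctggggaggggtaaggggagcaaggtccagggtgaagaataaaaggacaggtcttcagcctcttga

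In the promoters from 250 bases before to 50 after the start, which for Hbb-bh1 is that of GENCODE, 3 of the 7 genes held a Sox match. Hbb-y held 3 of them, at positions -226, -57 and -43 from the start, while Hba-x and Socs3 held 1 each. For comparison, 28.8% of the promoters of 27025 genes in RefSeq held at least 1. The GATA motif, searched on both strands as GATAA or GATAG with A or T before it, was found in Hbb-y, Hbb-bh1, Hba-x and Klf1, which is 4 of 7 beside 30.2% of all promoters. Neither the E-box letters CAGCTG and CAGGTG, found in 32.6% of promoters, nor CCACACCC, a form of the Klf1 motif found in 3.57%, were found in any of the 7. A match says only that the letters are present in this window.

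No Sox6 peak common to both experiments lay within 50 kb of any of the 7 genes, against 7.03% of all genes that had one. The nearest common peak was 380 kb from Socs3, 476 kb from Klf1, 613 kb from Hba-x and 1480 kb from Hbb-bh1. For Hbb-y the distance was 1490 kb, for Bcl11a 1559 kb and for Gata1 32182 kb. Replicate 2 also had no peak within 50 kb of any member, against 10.8% of genes. Replicate 1 had 2 such peaks, at Hba-x and at Socs3, so 2 of 7 members had a peak of that list where 15.3% of genes did, and 18.1% had a peak of either replicate. Their sequences are shown because they are the only places near the members where Sox6 was called. Both are on the plus strand of NCBI Build 37, with Sox matches in capitals.
Peak beyond Hba-x, chr11:32220832-32221131: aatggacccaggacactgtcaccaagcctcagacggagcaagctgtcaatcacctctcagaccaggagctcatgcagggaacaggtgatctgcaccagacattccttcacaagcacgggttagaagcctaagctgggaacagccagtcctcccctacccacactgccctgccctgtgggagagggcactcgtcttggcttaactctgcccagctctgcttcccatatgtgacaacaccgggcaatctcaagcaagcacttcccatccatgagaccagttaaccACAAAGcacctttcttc
Peak beyond Socs3, chr11:117797772-117798011: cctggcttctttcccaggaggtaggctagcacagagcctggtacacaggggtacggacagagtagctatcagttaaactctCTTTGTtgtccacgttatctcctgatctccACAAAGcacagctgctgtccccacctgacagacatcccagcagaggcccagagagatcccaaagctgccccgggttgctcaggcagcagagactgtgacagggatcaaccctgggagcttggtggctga

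The peak beyond Hba-x, on chromosome 11 from 32220812 to 32221151, lies 44581 bp downstream of the start of Hba-x. It is outside every gene, and the nearest is the α-globin family gene Hbq1a, 20108 bp away. In 450 bp around its centre it held 17 and 7 Sox6 reads, beside 10 and 15 of input and 2 and 7 of Pol II, in replicates 1 and 2. Scaled to library totals, Sox6 was 12.5 times input in replicate 1 (exact 95% interval 5.41 to 30.6), which is the library that called the peak. In replicate 2, which did not call it, Sox6 was 7.71 times input (2.66 to 20.1). The input predicted 0.908 reads there where 7 were counted (exact two-sided binomial test, adjusted p = 0.000435 over all replicate 1 peaks).

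The peak beyond Socs3, on chromosome 11 from 117797772 to 117798011, is also intergenic and lies 29502 bp past the end of Socs3, its nearest gene. It held 11 and 5 Sox6 reads beside 5 and 8 of input and 0 and 2 of Pol II. Sox6 was 16.2 times input in replicate 1 (5.19 to 59.5) and 10.3 times in replicate 2 (2.66 to 35.8). In replicate 2 the input predicted 0.485 reads where 5 were counted (exact two-sided binomial test, adjusted p = 0.00125). Both peaks therefore had more Sox6 than input in the experiment that had not called them, as did 67% of all replicate 1 peaks. The same test of replicate 2 peaks in replicate 1 passed for 84.4%. These intervals and p-values cover counting error only, since each sets 1 Sox6 library against 1 input. Reads copied by PCR are not independent molecules, so even the counting error can be larger than given.

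In letters, both places hold Sox matches. The peak beyond Socs3 holds 2, of which ACAAAG lies at positions -8 to -3 from the peak centre, next to the E-box CAGCTG, the kind of letters bound by Myod1 and Myog, with another E-box further on. The whole peak beyond Hba-x holds 2 Sox matches, at -151 and 134 from its centre, and 1 of them lies in the 300 bases shown. In 240 bp at the centres of all replicate 1 peaks, 52.2% held a Sox match and 66.9% an E-box, and in that window the peak beyond Socs3 holds both and the peak beyond Hba-x an E-box but no Sox match. The median replicate 1 peak held 11 and 5 Sox6 reads, so the peak beyond Hba-x had more reads than the median in both libraries and that beyond Socs3 had the median number.

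Around the gene starts themselves, Sox6 reads were few. Reads were counted in 1 kb to each side of the start, where the median gene held 3 Sox6 reads in replicate 1 and 2 in replicate 2, with 19 and 23 input reads. Between 96.8% and 100% of the 36-base words in the members' windows are unique in the genome, so reads could be placed there. By limma, 0 of the 6 members that could be tested had more or less Sox6 than input at an adjusted p under 0.05, and 1 passed at an unadjusted p. Over all 21837 genes tested, 0.44% were called higher and 0% lower, with 2849 higher and 165 lower at an unadjusted p. The fitted values rest on few reads, and the median log2 ratio of all genes was 0.43, while the tests and intervals are against equal levels of Sox6 and input, a log2 ratio of 0. With 2 libraries a group, the limma p-values rest largely on a spread between libraries that is pooled over genes of like level. The binomial p-values of the peaks hold counting error alone.

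**Figure D1:**
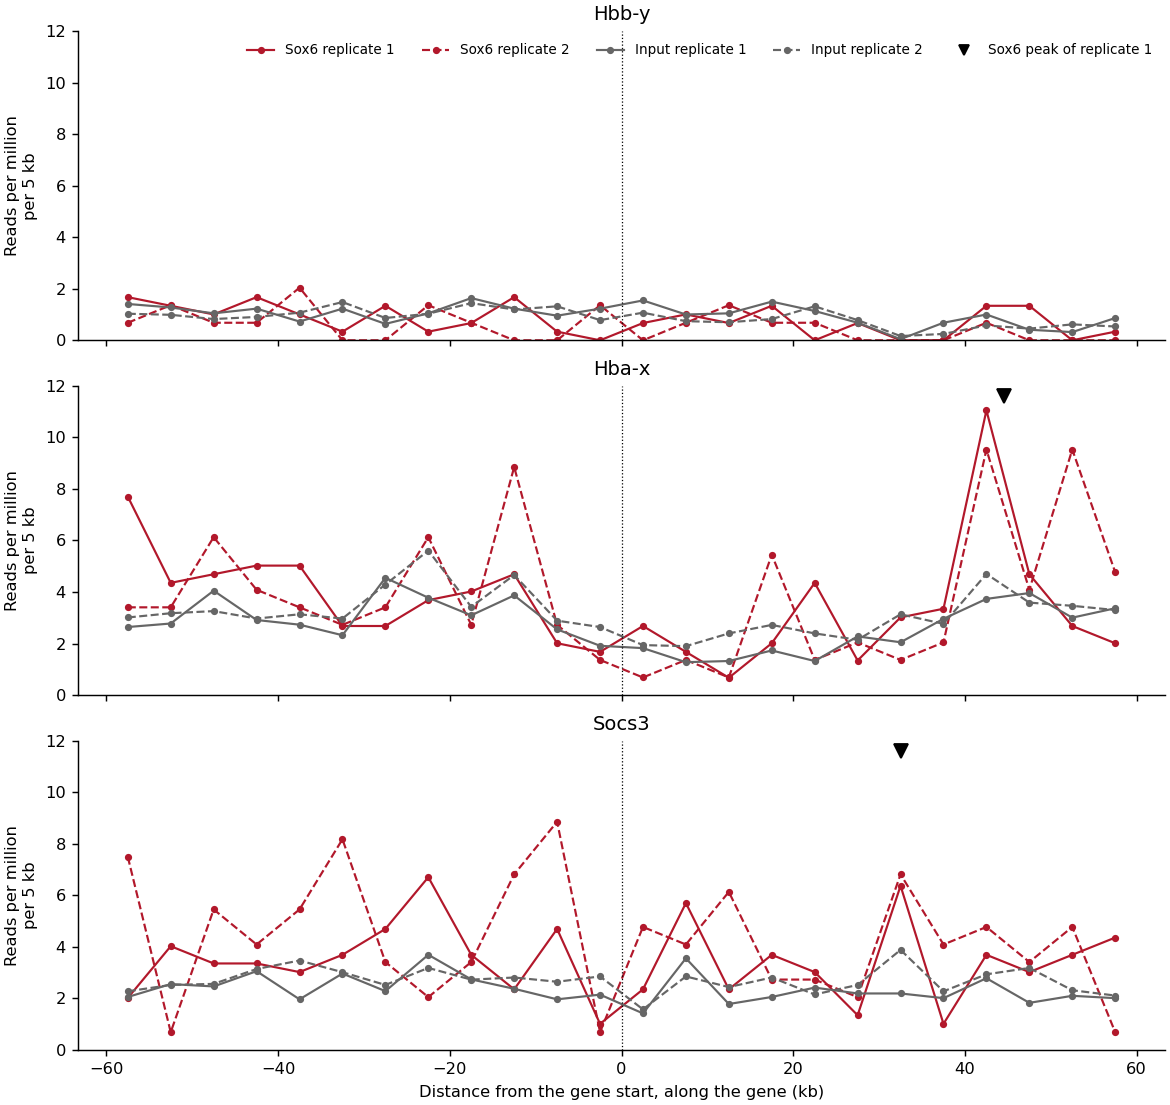
Sox6 and input reads scaled to library totals (RPM) per 5 kb (y axis) against the distance from the start along the gene in kb (x axis), for Hbb-y, Hba-x and Socs3, with solid lines for replicate 1, dashed lines for replicate 2 and a triangle at each Sox6 peak of replicate 1. Sox6 of both replicates lies above both inputs in the bin of each triangle, but also in other bins, such as the one that begins 10 kb upstream of Socs3 (14 and 13 Sox6 reads, beside 19 and 10 in that of the triangle). At the triangles the windows of 450 bp held 17 and 7 Sox6 reads beyond Hba-x and 11 and 5 beyond Socs3, and all lines lie low along Hbb-y.

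Hbb-y, the embryonic ε-like globin gene on chromosome 7 (111000259 to 111001754, minus strand, 3 exons), held no Sox6 read at its start in either library. The inputs held 21 and 11 reads in the same window, from which 2.85 and 0.666 Sox6 reads were expected at these depths. The upper bound on the ratio of Sox6 to the input of the same number was 1.41 in replicate 1 and 6.58 in replicate 2. Against both inputs pooled, these bounds were 1.892 and 3.846. The fitted log2 ratio was -1.51 ± 0.95 (SE), with an adjusted p of 0.495 by limma. With no Sox6 read in either library, this value depends on the reads added to each count. It was -4.15 with a pseudocount equal in RPM and 0.258 with 500 bp to each side. The place was thus read by input, but at the depth of Sox6 replicate 2 a ratio of up to 6.58 lies within the interval against input replicate 2.

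Hbb-bh1, the embryonic gene next to it in the cluster (110990150 to 110991678, minus strand, 3 exons), held 3 and 2 Sox6 reads at its start. The inputs held 4 and 6, from which 0.544 and 0.363 Sox6 reads were expected. In RPKM, reads scaled to the library total and the length of the window, Sox6 had 0.502 and 0.681 and input 0.091 and 0.124. The groups do not overlap, but the share of all genes of which this holds was not counted. The Sox6 reads equal those of the median start, and both inputs lie below their medians of 19 and 23. The ratio was 5.52 (0.809 to 32.6) in replicate 1 and much the same in replicate 2 (0.543 to 30.8), so both intervals include 1. The log2 ratio was 2.59 ± 0.87, the highest of the members tested, with an unadjusted p of 0.00778 and an adjusted p of 0.206 by limma. Of the 3 reads of replicate 1, only 2 had distinct positions, and no Sox match was found in the 250 bases upstream printed above.

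Over the body of Hbb-bh1 the counts were 2 and 2 for Sox6, those of replicate 1 at 1 distinct position, beside 4 and 4 for input. This span overlaps the start window. The log2 ratio there was 2.61 ± 0.84 (adjusted p = 0.0827 by limma, unadjusted 0.0109). That value passed the threshold under 4 of 8 alternative settings, 1 of them the replicate number as a block and 1 a fit with a single Sox6 library, with adjusted p between 0.0347 (the block) and 0.167 where no library was left out.

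Hba-x, the embryonic ζ-like globin gene at the head of the α-globin cluster (chromosome 11, 32176400 to 32178116, plus strand, 3 exons), held 3 and 1 Sox6 reads at its start. The inputs held 17 and 22 reads. The ratios were 1.30 (0.244 to 4.49) and 0.751 (0.0182 to 4.64), and the groups overlap in RPM. The log2 ratio was 0.35 ± 0.67 (adjusted p = 0.857 by limma). Hba-x, with a Sox match at position -123 from its RefSeq start, thus had Sox6 values that overlap those of input.

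Klf1, the erythroid activator of adult β-globin (chromosome 8, 87425827 to 87429194, plus strand, 3 exons), held 3 and 1 Sox6 reads and 26 and 35 input reads at its start. Its log2 ratio was -0.28 ± 0.58 (adjusted p = 0.866 by limma). Gata1, the master regulator of red cell genes (chromosome X, 7536386 to 7545036, minus strand, 6 exons), held 0 and 1 Sox6 reads and 7 and 10 input reads. Its log2 ratio was 0.11 ± 1.02 (adjusted p = 0.977), and it turned with the library, at 1.41 without Sox6 replicate 1 and -1.20 without replicate 2. In RPKM, Klf1 had 0.502 and 0.340 for Sox6, both below the 0.591 and 0.721 of input, and the values of Gata1 overlap those of input. How many of all genes have both Sox6 values below both inputs was not counted.

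Bcl11a, the repressor of fetal and embryonic globins (chromosome 11, 23978117 to 24074123, plus strand, 5 exons), held 0 Sox6, 0 Pol II and 3 and 3 input reads at its start. It was not tested there, since windows needed 10 reads over the 4 libraries. All 36-base words of this window are unique and its G+C share is 57.6%, beside a median of 51.4% over all genes. At the RefSeq start, 2578 bp downstream, there were 2 and 0 Sox6 reads and 5 and 6 input reads. These counts are too low to show or exclude a difference.

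Socs3 (chromosome 11, 117827393 to 117830500, minus strand, 2 exons) held 0 and 2 Sox6 reads and 8 and 16 input reads at its start. The log2 ratio was 0.06 ± 1.05 (adjusted p = 0.987 by limma). Without Sox6 replicate 1 it was 1.73 and without replicate 2 it was -1.61, so its direction rests on single libraries. Its start window has the highest G+C share of the members, 65.7%, and in the 4581 genes with the most G+C the median input was 15 and 20 reads.

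Over gene bodies, 0 of 7 members were called for Sox6 and 1 passed at an unadjusted p, where 5.76% of 20886 genes were called higher and 1.7% lower by limma. The longest, Bcl11a, gives the most precise value. It held 65 and 34 Sox6 reads beside 480 and 466 input reads, which gave ratios of 0.997 (0.757 to 1.29) and 1.21 (0.824 to 1.71). Its log2 ratio was 0.15 ± 0.15 (adjusted p = 0.572), so that a mean excess of Sox6 beyond 1.71-fold over the body lies outside both intervals. Klf1 (log2 0.53 ± 0.43), Gata1 (0.54 ± 0.42), Socs3 (0.59 ± 0.65), Hba-x (0.01 ± 0.84) and Hbb-y (-0.11 ± 0.85) did not pass the test, with adjusted p between 0.424 and 0.993. The median log2 ratio of all genes was 0.20.

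**Figure D2:**
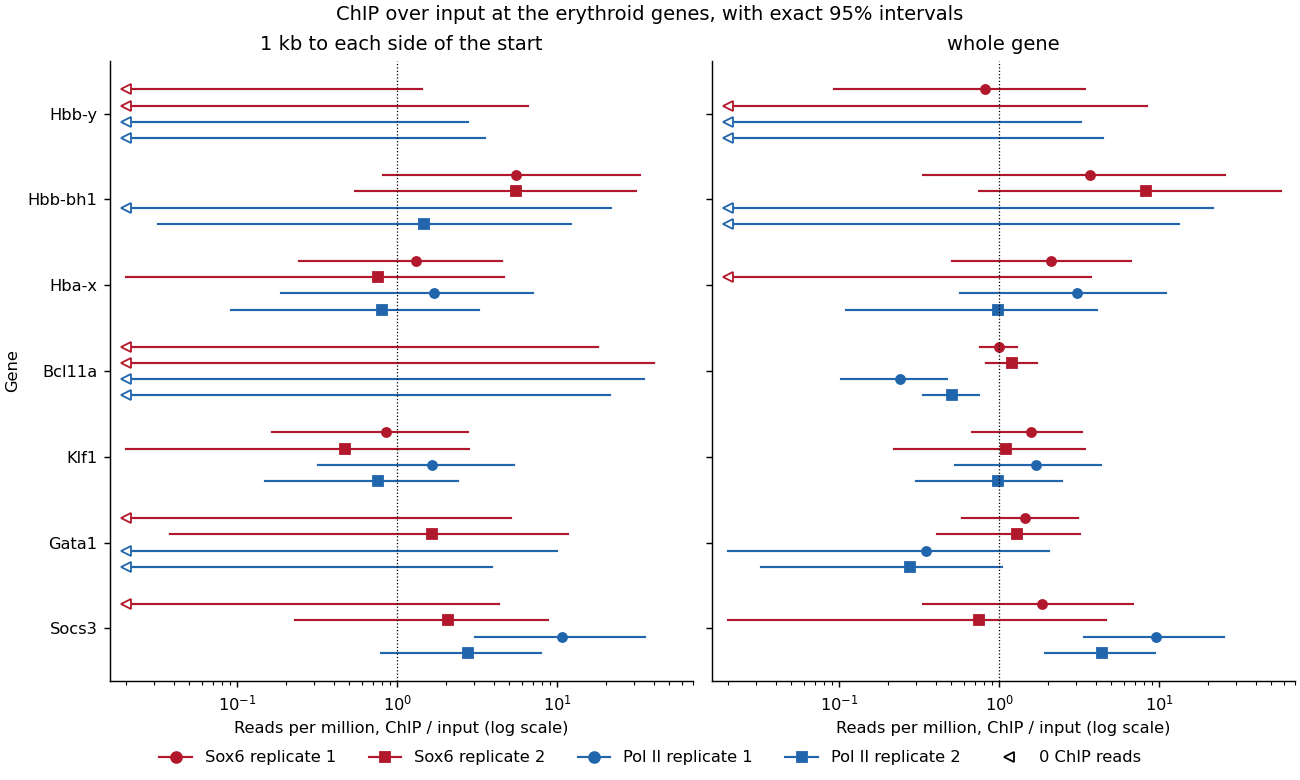
Ratio of Sox6 (red) and Pol II (blue) to the input of the same replicate on a log axis, in 1 kb to each side of the start and over the whole gene, for each of the 7 genes, with exact 95% binomial intervals as bars drawn no lower than the open triangles, which mark 0 ChIP reads. The Pol II intervals over the whole gene lie above 1 for Socs3 (3.38 to 25.3 and 1.92 to 9.45) and below 1 for Bcl11a (0.102 to 0.473 and 0.332 to 0.750), and all Sox6 intervals include 1.

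Since single windows held so few reads, each gene was also read with 50 kb on both sides. In this wider window Socs3 had the highest ratio of Sox6 to input of the 7, and the β-globin genes had the lowest. Socs3 held 216 and 138 Sox6 reads beside 1079 and 1374 input reads, a ratio of 1.47 (1.27 to 1.71) and 1.66 (1.38 to 1.98). Of all genes, 89.7% and 96.4% had a lower ratio. Hbb-y held 46 and 16 Sox6 reads beside 442 and 439 input reads, a ratio of 0.766 (0.553 to 1.04) and 0.602 (0.341 to 0.988), with 5.43% and 2.36% of genes lower. Hbb-bh1 had ratios of 0.677 and 0.545 in a window that overlaps that of Hbb-y, so that these are largely the same reads.

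The other members lay nearer the median of all genes, which was 1.11 in both replicates. Hba-x had ratios of 1.30 and 1.11, Klf1 1.22 and 1.11, Gata1 1.04 and 1.27, and Bcl11a 0.977 and 1.10. G+C content moves with these ratios. The window of Hbb-y has 38.9% G+C and that of Socs3 51.8%, beside a median of 44.5%. Genes were split by this G+C share into 10 sets of like size. In the set with the least G+C (34.57% to 39.15%, 2284 genes), which holds Hbb-y near its top, the median Sox6 ratio was 0.814 and 0.750. In the set with the most (50.12% to 61.57%, 2291 genes), which holds Socs3 near its bottom, it was 1.43 and 1.51. Within these sets, 35.8% and 14.8% of genes were lower than Hbb-y, and 61.9% and 78.4% lower than Socs3. Both genes lie near an edge of their set, so these are not ranks at an equal G+C share.

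**Figure D3:**
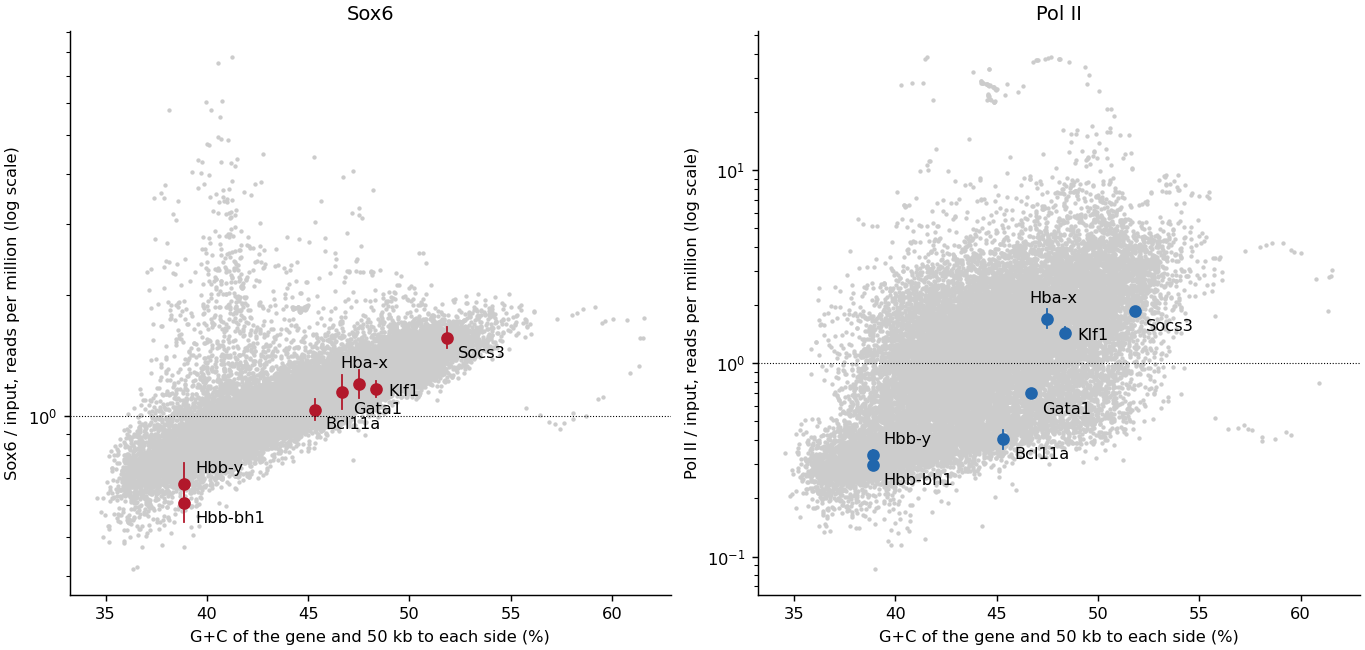
Ratio of Sox6 (left) and Pol II (right) to input in each gene with 50 kb to both sides, on a log axis, against the G+C share of that window in percent, with a grey point for each gene at the geometric mean of both replicates and the 7 members in colour, where bars join the replicates. The Sox6 ratios rise with G+C, and the β-globin genes (38.9% G+C) and Socs3 (51.8%) lie near the low and the high end.

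Pol II was measured to show whether the genes were being transcribed in the myotubes. Socs3 was the only member with more Pol II than input that passed the test, and Bcl11a the only one with less. Hbb-y and Gata1 passed as lower under some alternatives only, with another pseudocount, scaling or weights or with a library left out, and Hba-x and Klf1 as higher only without Pol II replicate 2. The globin genes Hbb-y and Hbb-bh1 held no Pol II read over their bodies. Levels are given in RPKM over the gene, so that genes of different length can be compared.

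At the start of Socs3 there were 6 and 5 Pol II reads beside 8 and 16 input reads. That is 3.90 and 1.81 RPM for Pol II and 0.364 and 0.66 RPM for input. The groups do not overlap, but the share of all genes of which this holds for Pol II was not counted. The ratio of Pol II to the input of the same number was 10.7 (3.06 to 35.2) in replicate 1 and 2.74 (0.786 to 7.84) in replicate 2. Against both inputs pooled it was 7.51 (2.511 to 18.86) and 3.486 (1.039 to 9.321), so whether the replicate 2 interval includes 1 depends on the input used. The log2 ratio was 2.50 ± 0.61 (adjusted p = 0.000164 by limma), beside a median of 0.77 over all genes. In the 4581 genes with the most G+C, the median start held 4 and 6 Pol II reads beside 15 and 20 of input. Over the body the counts were 8 and 11 for Pol II beside 12 and 22 for input, with a log2 ratio of 2.72 ± 0.49 (adjusted p = 0.000926), beside a median of 0.18. The Pol II level of Socs3 was 1.67 and 1.28 RPKM, above 82.9% and 76.2% of genes, but 6.33% and 3.58% of that of Actb.

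At starts, 1 of 6 tested members was called, where 41% of genes were called higher and 1.35% lower for Pol II. Over bodies, 1 of 6 was higher and 1 lower, where 39% were higher and 23.9% lower, and 3 passed at an unadjusted p. The shares of members called higher are below those of all genes at both places, but the members are few and this difference was not tested.

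Bcl11a held 8 and 27 Pol II reads beside 480 and 466 input reads over its body. The ratios of 0.238 (0.102 to 0.473) and 0.509 (0.332 to 0.750) both lay below 1, and the log2 ratio was -1.47 ± 0.27 (adjusted p = 0.000999 by limma). Its level was 0.0542 and 0.102 RPKM. Gata1 held 1 and 2 Pol II reads beside 41 and 64 input reads, with a log2 ratio of -1.25 ± 0.52 that missed the threshold (adjusted p = 0.0589). Its level was 0.0751 and 0.0837 RPKM, close to that of Bcl11a.

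Hba-x held 3 and 2 Pol II reads over its body and Klf1 5 and 5, which is 1.14 and 0.422 RPKM for Hba-x and 0.965 and 0.538 RPKM for Klf1. Their log2 ratios of 1.02 ± 0.66 and 0.49 ± 0.46 did not pass the test (adjusted p = 0.207 and 0.388 by limma). Hbb-y held 0 and 0 Pol II reads beside 18 and 9 input reads, from which 1.26 and 1.03 reads were expected. Hbb-bh1 held 0 and 0 beside 4 and 4 and was not tested there. In RPKM the order was thus Socs3, then Hba-x and Klf1, then Gata1 and Bcl11a, with the β-like globins at 0. The values of Hba-x and Klf1 overlap each other, as do those of Gata1 and Bcl11a. Socs3 lay above Hba-x and Klf1, and these above Gata1 and Bcl11a, without overlap. A single further read at Hba-x in replicate 1 would bring overlap with Socs3. In replicate 2, Hba-x and Klf1 lay just below their inputs of 0.432 and 0.551 RPKM. The place of the β-like globins below Gata1 and Bcl11a is not set by these data, since a single Pol II read in genes this short would lift either above both.

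**Figure D4:**
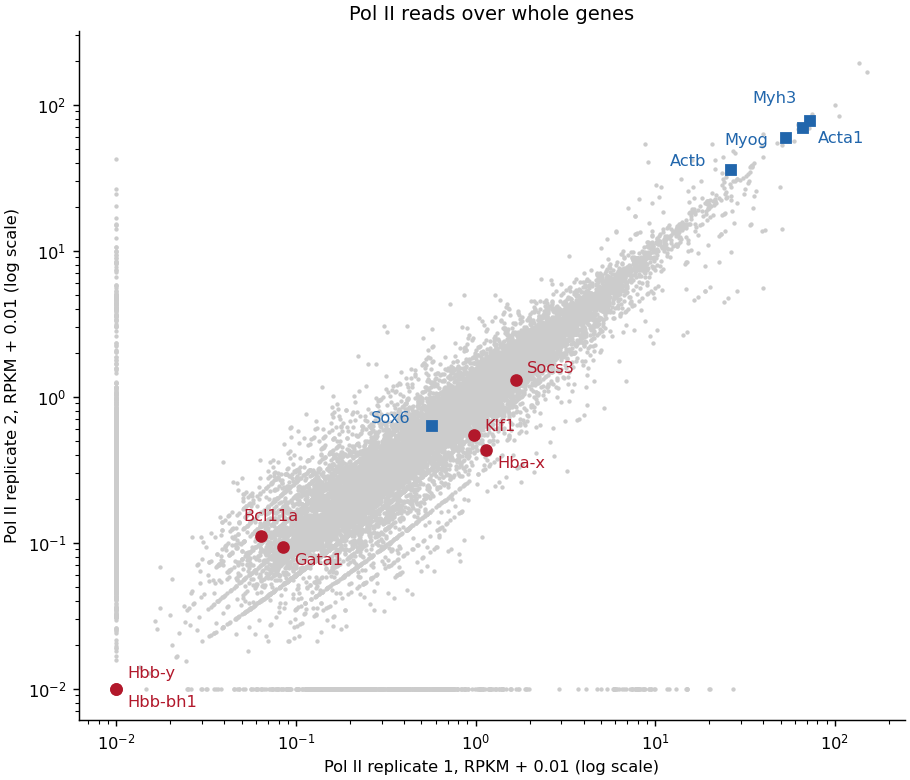
Pol II level over whole genes in RPKM, with 0.01 added, in replicate 1 (x axis) and replicate 2 (y axis), both on log scales, for all genes (grey), the 7 members (red circles) and reference genes (blue squares). Socs3 (1.67 and 1.28 RPKM) is the highest of the members, Hbb-y and Hbb-bh1 lie at 0, and Actb (26.4 and 35.8), Myog (53.7 and 59.1) and Myh3 (73.3 and 77.8) lie far above all of them.

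No Pol II peak was called inside any of the 7 genes in either replicate, where 12.5% and 17.5% of all genes had one. The nearest ones at Hba-x lay 8.73 and 8.61 kb away, at the start of Nprl3, the widely expressed gene beside the α-globin cluster. In replicate 2 a Pol II peak lay 44.9 kb from Klf1, in exon 1 of Farsa, which encodes a subunit of phenylalanyl-tRNA synthetase, and another 42.4 kb downstream of Socs3. For Gata1 the nearest was 62.9 kb away, for Bcl11a 582 kb, and for the β-globin genes over 1390 kb.

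Pol II over each gene and 50 kb to both sides followed a like order, but these windows hold neighbouring genes too. At Hba-x, the bin of 5 kb at -10000 bp from the start held 19 and 34 Pol II reads, and the bin at 0 held 4 and 5. The ratio to input was 1.93 and 1.79 at Socs3, 1.90 and 1.52 at Hba-x, and 1.54 and 1.35 at Klf1. It was 0.724 and 0.685 at Gata1, 0.361 and 0.454 at Bcl11a and 0.355 and 0.320 at Hbb-y, beside medians of 1.12 and 1.06 over all genes. In the set of genes by G+C share that holds Bcl11a (44.45% to 45.71%), 1.92% and 12.5% of genes were lower than it. Hbb-y was near the median of its set, with 47.0% and 50.1% lower. Socs3 lay below the medians of its own set, 2.462 and 2.195, with 33.65% and 35.7% of genes lower.

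The wider red cell programme was read from lists of other genes. Among transcription factors of red cell development, 8 of 13 had more Pol II than input over their bodies and 3 had less, by limma, beside 39% and 23.9% of all genes. At their starts 6 were higher and 0 lower, also at an unadjusted p, beside 41% and 1.35% of all genes. The largest were Runx1, a factor of blood stem cells that is active in other tissues too, with a log2 ratio of 2.93 ± 0.06, and Zbtb7a, a further repressor of fetal globin, with 2.55 ± 0.17. Nfe2, which binds globin enhancers, had 1.80 ± 0.22 over its body but -0.86 ± 0.70 at its start, and Bach1, a haem-sensing repressor, had 1.71 ± 0.13. Myb, Lmo2 and Gfi1b were the 3 with less.

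Of 10 genes of haem synthesis and iron uptake, most of which other cells use too, 6 had more Pol II over their bodies, beside 39% of all genes, and 0 less, also at an unadjusted p. At their starts 8 were higher and 0 lower by limma, also at an unadjusted p, beside 41% and 1.35% of all genes, and 5 and 1 when centred. Those with more over their bodies include Ppox (1.93 ± 0.32), Fech (1.17 ± 0.13), the transferrin receptor gene Tfrc (1.16 ± 0.16) and Alad (0.97 ± 0.27). Of 12 genes of the red cell membrane, 1 had more and 7 less over their bodies, beside 39% and 23.9% of all genes, while at their starts 0 were called in either direction, also at an unadjusted p, beside 41% and 1.35%, and 2 were lower when centred. The one with more was Ank1 (1.17 ± 0.08), which is also known to make a small muscle form, and those with less include the blood group genes Kel (-2.16 ± 0.40), Rhag (-1.996 ± 0.316) and Rhd (-0.77 ± 0.30).

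Among 11 genes of the erythropoietin receptor, Stat and Socs pathway that Socs3 belongs to, 6 had more Pol II over their bodies and 2 less, beside 39% and 23.9% of all genes. At their starts 4 were higher and 0 lower, also at an unadjusted p, beside 41% and 1.35%, and 1 and 1 when centred. Over bodies Socs1, its close relative, had a log2 ratio of 4.32 ± 0.54, Il6st, the receptor subunit that Socs3 binds, 1.52 ± 0.11 (at its start -0.50 ± 0.68), Stat3 1.42 ± 0.12 and the survival gene Bcl2l1 1.18 ± 0.09. Of the 7 other globin genes 3 could be tested, and 0 were called by limma at an adjusted or an unadjusted p, while with a pseudocount equal in RPM all 3 had less Pol II than input. The list medians were 0.76 for transcription factors, 0.845 for haem, 0.85 for the Stat and Socs genes, -0.76 for the membrane and -0.24 for other globins, beside 0.18 over all genes. Centred on the median of all windows, the counts were 7 higher and 4 lower for transcription factors, 4 and 2 for haem, 1 and 11 for the membrane, and 6 and 2 for the Stat and Socs genes.

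**Figure D5:**
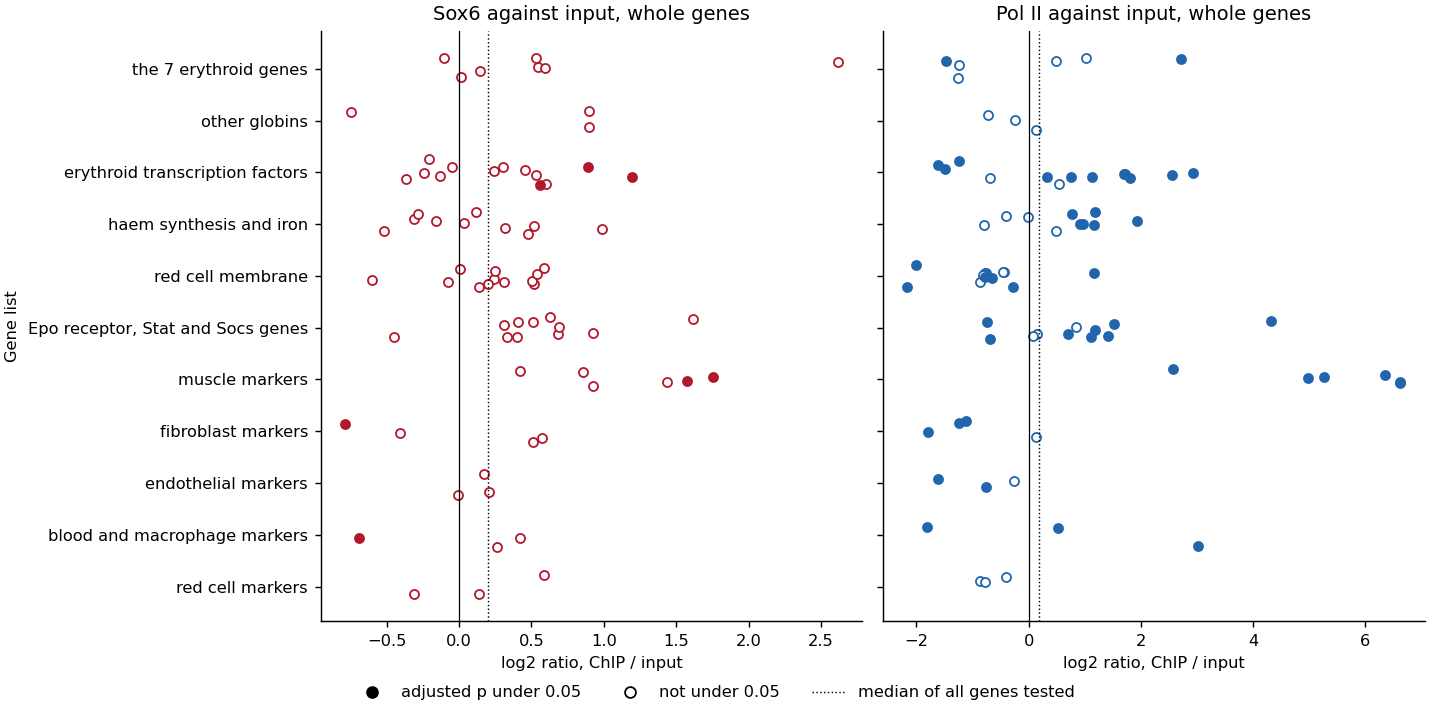
Log2 ratio of Sox6 (left) and Pol II (right) to input over whole genes, with 1 point a gene, for the members tested, 5 other erythroid lists and 5 lists of cell type markers, where filled points have an adjusted p under 0.05 and the dotted line marks the median of all genes (0.20 for Sox6, 0.18 for Pol II). Among the erythroid lists, Pol II is mostly above input for transcription factors (8 of 13 called higher) and below it for membrane genes (7 of 12 called lower). The muscle markers have the highest Pol II median of the lists (5.806), though not each of them lies above all other genes drawn.

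At the starts of the 53 listed genes Sox6 was called at 0 by limma, where 0.44% of all genes were higher. At an unadjusted p 6 of the 53 were higher and 0 lower, beside 2849 and 165 of 21837 genes. Over bodies Sox6 was called higher in 3 of the 49 listed genes tested and lower in 0, by limma, beside 5.76% and 1.7% of all genes, and at an unadjusted p 13 were higher and 2 lower, beside 4321 and 1481 of 20886. The 3 are transcription factor genes, Runx1 (log2 0.56 ± 0.10, adjusted p = 0.0172 by limma), Zbtb7a (1.19 ± 0.21, 0.0184) and Zfpm1, the Gata1 partner (0.89 ± 0.17, 0.0215), which were named after their values were seen. With values centred on the median, or with a pseudocount equal in RPM, 0 of the 13 transcription factor genes were called. A common Sox6 peak lay within 50 kb of 2 of these 53 genes, where 7.03% of all genes had one. That of the membrane skeleton gene Add2, on chromosome 6 from 86107462 to 86107601, is 37982 bp from it and upstream of Tgfa, with 16 and 7 Sox6 reads and 11 and 18 input reads. The gene Sox6 itself had a Pol II level of 0.562 and 0.616 RPKM, beside 0.645 and 0.598 RPKM of input, and 2 common Sox6 peaks in intron 5. Its log2 ratio of Pol II to input over the body was -0.08 ± 0.07 (adjusted p = 0.393 by limma).

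For each member, the genes most like it were found by the distance between log2 RPKM values of the gene body over the 6 libraries. Klf1 was nearest to Tgm2 (0.31) and C85492 (0.34), Gata1 to Apol7a (0.33) and Pkd1l2 (0.40), and Bcl11a to 1700091E21Rik (0.40) and Loxhd1 (0.48). Hba-x was nearest to Rprm (0.57) and 1700007I08Rik (0.78), and Hbb-y to 4921525B02Rik (0.58) and Rnf148 (0.73). Hbb-bh1, with Olfr1433 (0.87) and 2010016I18Rik (0.92), and Socs3, with Lbx1 (0.89) and H2afz (0.93), had the most distant matches. The short genes rest on a few reads in each library, so that these distances hold counting error too.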

How the data were processed

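The authors aligned the reads with Bowtie 0.12.5 to NCBI Build 37, kept uniquely mapped ones, and ran SISSRs with the input of each experiment as background to find peaks, joining Sox6 peaks of both replicates within 50 bp. The deposited files hold positions of reads and peaks, with no column of counts and no normalization. Peak scores were not used.

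From the deposited positions, each read was placed at its 5′ end and counted in 1 kb to each side of gene starts, over gene bodies and in 450 bp around peak centres. Gene models came from GENCODE vM1, for 19288 of the 22921 RefSeq names the longest with a consensus coding sequence tag. The other genes had the longest model of the basic set or, failing that, of any kind. Sequences came from the NCBI Build 37 genome and, for promoters, from RefSeq. Hbb-bh1 had no promoter entry there and was read from its GENCODE start. The log2 values of (reads + 0.5) in RPM were fitted by limma-trend in the 2 ChIP and 2 input libraries, for windows with at least 10 reads over the 4, with Benjamini-Hochberg adjustment over all genes at 0.05. For a replicate 1 peak, Sox6 and input reads of replicate 2 were compared by a two-sided exact binomial test, and ratios carry exact 95% binomial intervals that hold counting error alone. The fits and the binomial test were tested on simulated data. RPKM used all reads of a gene.

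Genes named were all 7 members, up to 4 called genes with the largest ratio in each list, listed genes with a common peak within 50 kb, and the 2 genes most like each member, except some listed genes that are not reported here. The members and lists were chosen with earlier results of these data known. The tools were limma 3.58.1 in R 4.3.3 and, in Python 3.11.15, numba 0.67.0, scipy 1.17.1, pandas 2.3.3, matplotlib 3.10.9 and numpy 2.4.6. Library totals of 1468604 to 2985437 ChIP reads give a typical start window 2 or 3 reads, so ratios of single windows are imprecise. Alternatives were other windows, pseudocounts, filters, scalings and weights, repeated positions counted once, a replicate block, each library left out, and, chosen after seeing the data, the RefSeq start.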

Additional observations from a re-analysis of the deposited data

How the results depend on the processing

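Socs3 and Bcl11a kept their Pol II calls under all alternatives run. The log2 ratio of Socs3 lay between 1.75 and 3.93 at its start and between 2.30 and 3.08 over its body, and that of Bcl11a between -1.89 and -1.04. Of 255 alternative values for members, 232 kept their side of the threshold, 23 came to pass it and none was lost or reversed while called. Gata1 passed for Pol II over its body with a pseudocount equal in RPM (adjusted p = 0.0368 by limma), when centred (0.0156) and without either Pol II library. Hbb-bh1 passed for Sox6 over its body with no minimum (0.0471), voom weights (0.0362), the replicate block (0.0347) and without Sox6 replicate 1. Hbb-y passed as lower for Pol II at its start with a pseudocount equal in RPM (0.00304), when centred (0.0297), with voom weights (0.046) and without Pol II replicate 1, and with that pseudocount also over its body (0.00713), as did Gata1 at its start (0.0015). Without Pol II replicate 2, Hba-x passed as higher at its start and over its body and Klf1 over its body. Without Sox6 replicate 2, Hbb-y passed as lower for Sox6 at its start, and without replicate 1 Gata1 passed as higher over its body, as did Gata1 and Socs3 at their starts. At its start Hbb-bh1 passed without either Sox6 library. In all fits with 1 ChIP library left, that library is assumed to vary like the deep inputs, so passing there is not read as a call. For Pol II, the counts over all genes stayed within 1.5 times those reported, from 6800 to 13337 around 9199 at starts and from 10010 to 15780 around 13132 over bodies. These Pol II counts hold higher and lower calls together. Lower calls alone moved further at starts, from 294 to 2973 with a pseudocount equal in RPM and 1895 when centred. They fell to 133 with the replicate block and 11 with 500 bp to each side. Total counts for Sox6 moved much more than those for Pol II. Sox6 at starts was called at 96 genes, at 410 with 500 bp to each side, 0 with a pseudocount equal in RPM, 743 with no minimum, 2 when centred on the median, 213 with voom weights, 18 with the G+C trend removed, and 0 to 10403 with a library left out. Sox6 over bodies was called at 1558 genes, at 0 with a pseudocount equal in RPM, 2865 with no minimum, 431 when centred, and 183 to 10502 with a library left out. Centring moved the share of calls that were higher from 77.2% to 22.3% for Sox6 bodies, from 96.8% to 76.7% for Pol II starts and from 62.0% to 46.6% for Pol II bodies, and the RPM pseudocount moved Pol II starts to 71.2%. With that pseudocount the median log2 ratio of all genes was 0.111 for Sox6 bodies, 0.421 for Pol II starts and 0.017 for Pol II bodies. The medians reported above for these were 0.2, 0.765 and 0.179, and with no minimum of reads they were 0.261, 0.849 and 0.371. With the replicate number as a block, Sox6 was called at 343 starts and 3973 bodies. Replicate differences of ChIP and input correlated between -0.006 and 0.057 over genes, and the methods name an input for each experiment without saying which, so whether the numbers pair the samples is not settled. The number of Sox6 peaks within 50 kb was 0 for common peaks and 2 for peaks of either replicate. The binomial tests of both replicate 1 peaks passed with 1 kb (adjusted p = 0.0046 beyond Hba-x and 0.0388 beyond Socs3) and with repeated positions counted once. With only reads in called Pol II peaks, the level of Hba-x, Bcl11a, Klf1, Gata1 and Socs3 was 0 RPKM. The cause of these changes was not tested. At these depths, an excess of Sox6 at a single start could be shown only where it was several-fold, and the upper bounds at single starts reach 39.96.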
